A study of Mus musculus with 4 samples.

Results

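The genes described here carry proteins into the endoplasmic reticulum and on to the Golgi apparatus. They were taken by symbol, with the signal recognition particle (Srp), its receptor and the Sec61 translocon with Sec62, Sec63 and Tram1 first. The translocon-associated (Ssr, or TRAP) complex, the signal peptidase accessory subunits (Spcs), the COPII coat with its organisers and the Sec22 genes followed. The Tmed genes, called p24 here and most of them cargo receptors, the COPI coat and the granule GTPase Rab3d made up the rest. The rule found 58 of 17712 genes. All 58 had counts, but Sec31b, with 22 UMIs (unique molecular identifiers, each marking 1 captured RNA molecule) in all cells, was too low for any test, so that 57 were tested, or 55 between GFP+ and Epcam+ libraries of cluster 5. Srp54a has the near-identical copies Srp54b and Srp54c in the same genome, and reads could have been split among them, so its value is uncertain.

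Stomach epithelial cells came from female Rosa26iH2b-GFP mice aged 14 weeks. These mice carry an H2b-GFP histone fusion under the doxycycline-responsive TRE3G promoter and a Tet-on 3G transactivator at the Rosa26 locus, in every group. They received doxycycline for 4 weeks and were chased without it for 6 weeks, and cells of 2 mice were combined before loading. Droplet-based 3′ single-cell RNA-seq was made from 2 libraries of Epcam-positive GFP+ cells and 2 libraries of all Epcam+ cells. No source used here shows that the libraries of a sort came from separate animals, and a p-value here reflects how far these libraries spread, possibly for technical reasons alone.

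The files held 467 and 444 cells in GFP+ 1 and 2, against 1642 and 1896 cells in Epcam+ 1 and 2, with a median of 45119 and 104840 UMIs per cell in GFP+ libraries, against 35067 and 31735 UMIs in Epcam+ libraries. The authors' cluster of each cell was used. By their marker genes the study names cluster 1 and cluster 5 chief cells, cluster 2 pit cells, clusters 3 and 4 isthmus cells, clusters 6 and 7 endocrine cells, cluster 8 parietal cells and cluster 0 neck cells. Levels are in CPM, counts scaled to the total of a library's cells in a cluster, with TMM factors. TMM assumes that most genes do not differ, but 58.1% differed between clusters 1 and 0 (edgeR adjusted p below 0.05). Muc6, a neck cell mucin, averaged 27.8 CPM in cluster 1, against 4280 CPM in cluster 0. Gkn1, a pit cell product, averaged 28092 CPM in cluster 2, against 30.3 CPM in cluster 0. Cluster 5 carried markers of several types, with Muc6 at 1597 CPM and Tff1 at 4031 CPM beside the chief cell gene Cblif at 12738 CPM, and 37 of its 278 cells were called doublets. Cluster 7 held Ghrl, and the muscle genes Acta2 and Myh11 summed to 0 to 299.7 CPM over its 3 libraries, both being at 0 in GFP+ 1. Chief cell markers (Pgc, Cblif, Pla2g1b, Clps and Chia1) summed there to 163497 to 448426 CPM, against 72471 to 121902 CPM for endocrine markers. Of the 88 cells of cluster 7, 9 were called doublets. In cluster 1 the secretory products Clps, Pla2g1b and Pgc made up 81.7% to 82.6% of UMIs, in cluster 5 54.8% to 61.8% and in cluster 0 13.1% to 21.5%, so the scale on which a gene is compared matters.

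As background, proteins bound for secretion are recognised at their signal peptide by the signal recognition particle, docked by its receptor and threaded through the Sec61 channel, where signal peptidase cuts the signal. COPII coats then carry cargo from the endoplasmic reticulum toward the Golgi apparatus, p24 proteins help to sort that cargo, and COPI coats return material. Zymogen-secreting cells such as gastric chief cells are known for an extensive rough endoplasmic reticulum, and Rab3d sits on their secretory granules.

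Counts were summed per library and cluster, and clusters were compared by edgeR (quasi-likelihood, library as a block) with Benjamini-Hochberg adjustment over all 13154 genes tested. The clusters were themselves made from these cells' expression, so that p-values between clusters describe their separation and carry no independent evidence. Only these sums were compared, so a lower level was not split into fewer cells with the RNA and less RNA per cell.

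Entry into the endoplasmic reticulum was the stage at which cluster 1 stood furthest above cluster 0. In all, 39 of the 57 tested members rose and 10 fell in cluster 1, where 58.1% of all genes passed the test (27.2% higher and 30.8% lower), and the members' median log2 fold change was 0.76, against -0.05 over all genes. These directions depended on the scale. With library totals and no TMM factors, the median of all genes moved to -2.68 and 2 members rose and 55 fell, where 162 of all genes rose and 11932 fell. With totals that leave out Clps, Pla2g1b and Pgc it moved to -0.48 and 33 rose and 20 fell, where 1799 of all genes rose and 6658 fell. Markers of other cell types also moved. Those of endocrine cells (5 of 5 rose) summed to 115 to 467 CPM in cluster 1, against 33.6 to 53.9 CPM in cluster 0. With library totals 0 of the 5 passed. Those of parietal cells (1 of 2 rose, the proton pump gene Atp4a) summed to 182 to 318 CPM in cluster 1, against 6.54 to 12.0 CPM in cluster 0, while of the 5 pit markers 2 rose and 1 fell. The fibroblast gene Dcn, which also rose, had 1.69 to 4.11 CPM in cluster 1, against 0 to 0.409 CPM in cluster 0. The part of these cells in the members' levels was not tested. Relative to the median of all genes, the members' median stood 0.81 higher with TMM, 0.75 with library totals and 0.78 with totals without the 3 products.

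**Figure D1:**
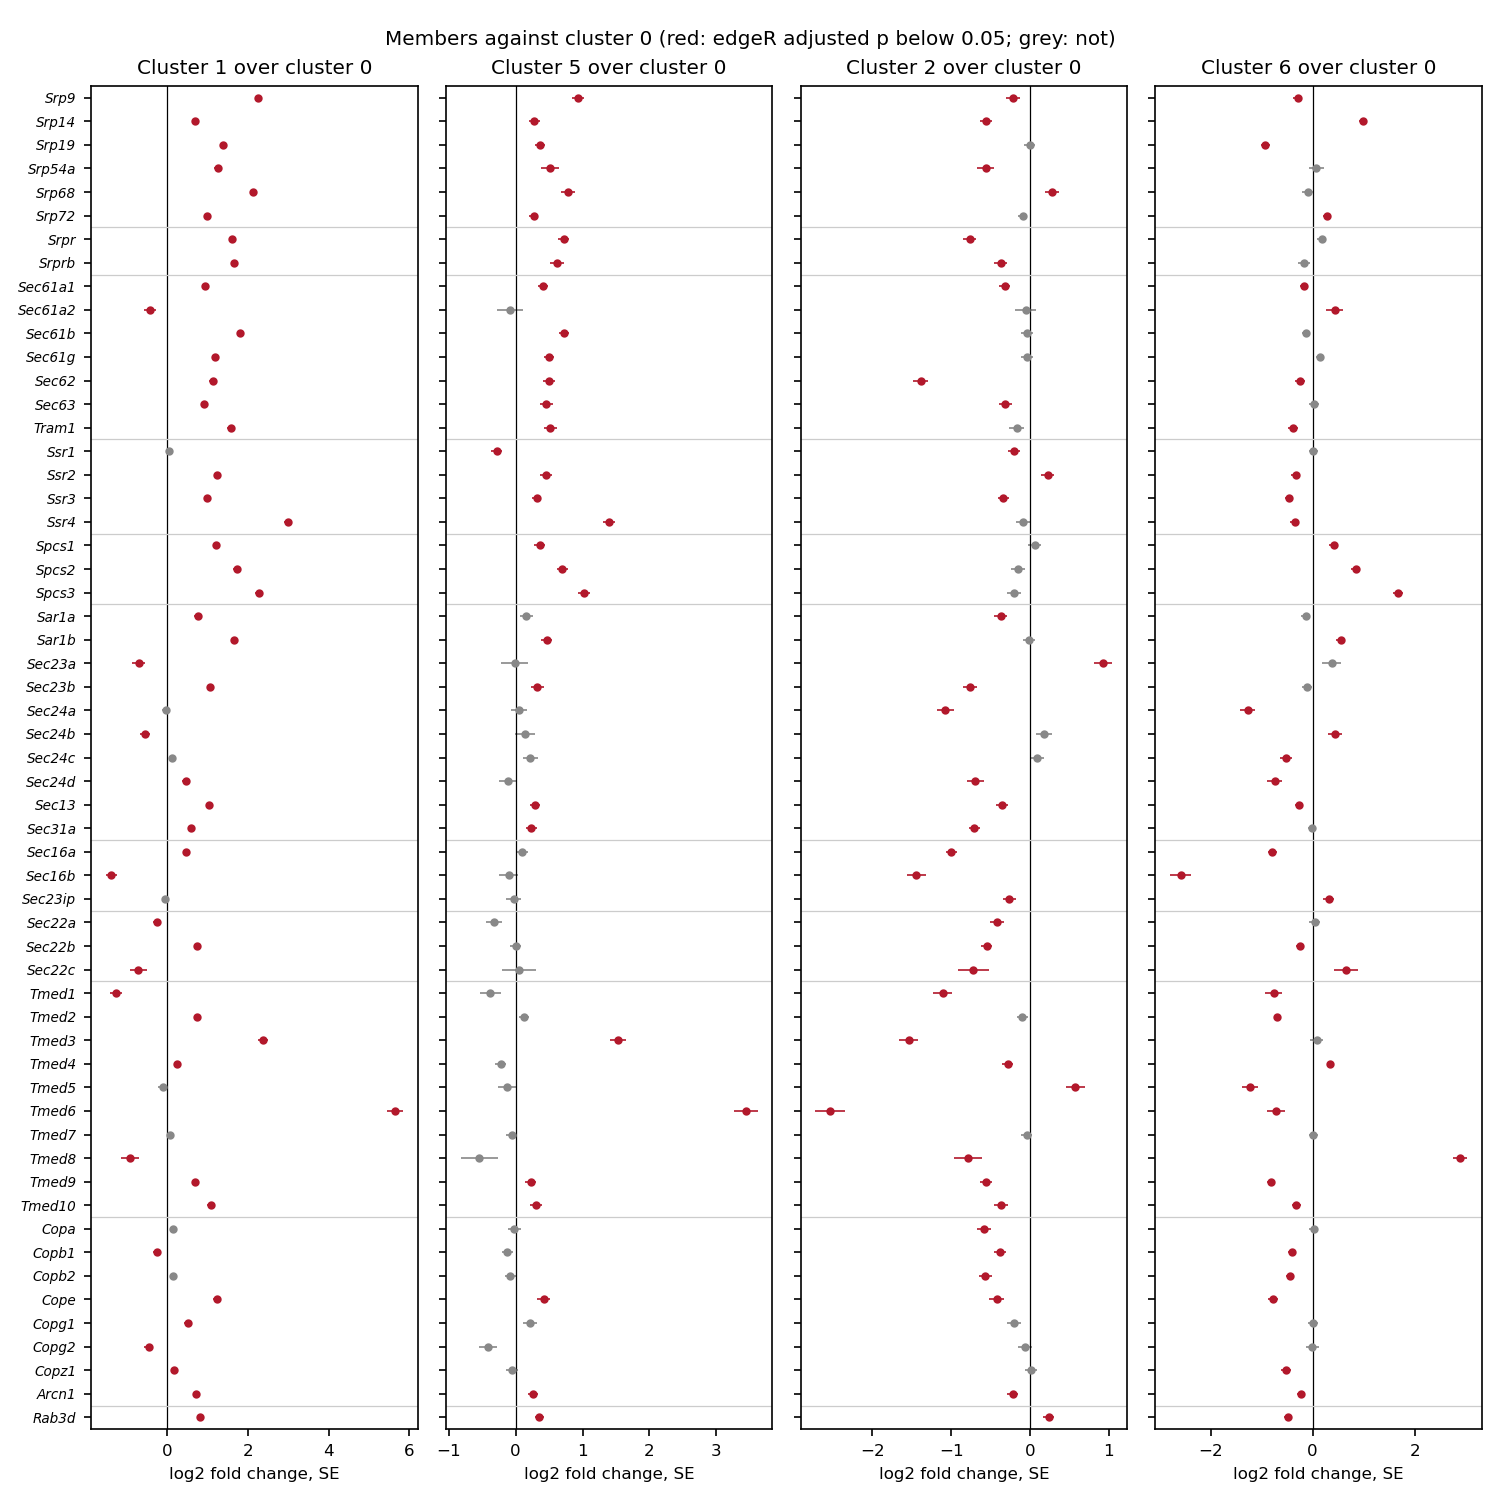
Log2 fold change with its SE of each of 57 members in clusters 1, 5, 2 and 6 over cluster 0, with members in rows by role and red points past an edgeR adjusted p of 0.05. In cluster 1 most members of the entry machinery sit right of 0 and Tmed6 lies furthest right at 5.64, and in cluster 2 most members sit left of 0.

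All 6 members of the signal recognition particle rose in cluster 1 with a median log2 fold change of 1.33, and both receptor subunits, Srpr and Srprb, rose by 1.61 and 1.66. Srp9, which with Srp14 forms the part of the particle that pauses translation, had 736 and 780 CPM in GFP+ libraries and 880 and 964 CPM in Epcam+ libraries of cluster 1, against 158 to 197 CPM in cluster 0. Every library of cluster 1 lay above all of cluster 0, and the log2 fold change was 2.27 ± 0.09 (SE). Its partner Srp14 averaged 154 CPM in cluster 1, against 95.3 CPM in cluster 0. Srp9 made up 84.4% ± 0.940 of the UMIs of both genes in cluster 1, against 64.6% ± 1.99 in cluster 0 (SD, n = 4 libraries), so the partners rose unequally. Srp72, Srp19 and Srp54a rose by 0.99, 1.39 and 1.27. Srp68, a protein of the particle's other domain, averaged 94.8 ± 4.97 CPM in cluster 1, against 22.0 ± 3.67 CPM in cluster 0.

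Of the 7 translocon members 6 rose and Sec61a2 fell. Sec61b, the channel's beta subunit, averaged 1200 ± 92.8 CPM in cluster 1, against 344 ± 32.9 CPM in cluster 0. Sec61a1, the main channel-forming subunit, rose by 0.93 on the log2 scale, while its paralog Sec61a2 averaged 5.88 ± 1.49 CPM in cluster 1, against 8.42 ± 1.30 CPM in cluster 0 (log2 fold change -0.41 ± 0.15). The gamma subunit Sec61g rose by 1.20. The Sec61a2 share of the pair was 4.22% ± 0.856 in cluster 1, against 10.8% ± 1.16 in cluster 0. Sec62, which with Sec63 assists post-translational entry, rose by 1.13 and Tram1, a translocation-associated membrane protein, by 1.58.

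In the TRAP complex the subunits moved apart. Ssr4 had 2823 and 3073 CPM in GFP+ libraries and 2853 and 3105 CPM in Epcam+ libraries of cluster 1, against 355 to 383 CPM in cluster 0. No library of the clusters overlapped, and the log2 fold change was 2.99 ± 0.09. Ssr1 averaged 114 ± 6.71 CPM in cluster 1, against 109 ± 9.11 CPM in cluster 0, and did not pass the test (log2 fold change 0.05 ± 0.07). Ssr4 therefore held 81.8% ± 1.25 of the complex's UMIs in cluster 1, against 50.8% ± 0.835 in cluster 0. Ssr2 and Ssr3 rose by 1.25 and 0.98. All 3 signal peptidase accessory subunits rose, Spcs3 by 2.27 ± 0.08 with 203 to 240 CPM in cluster 1, against 42.7 to 46.3 CPM in cluster 0.

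**Figure D2:**
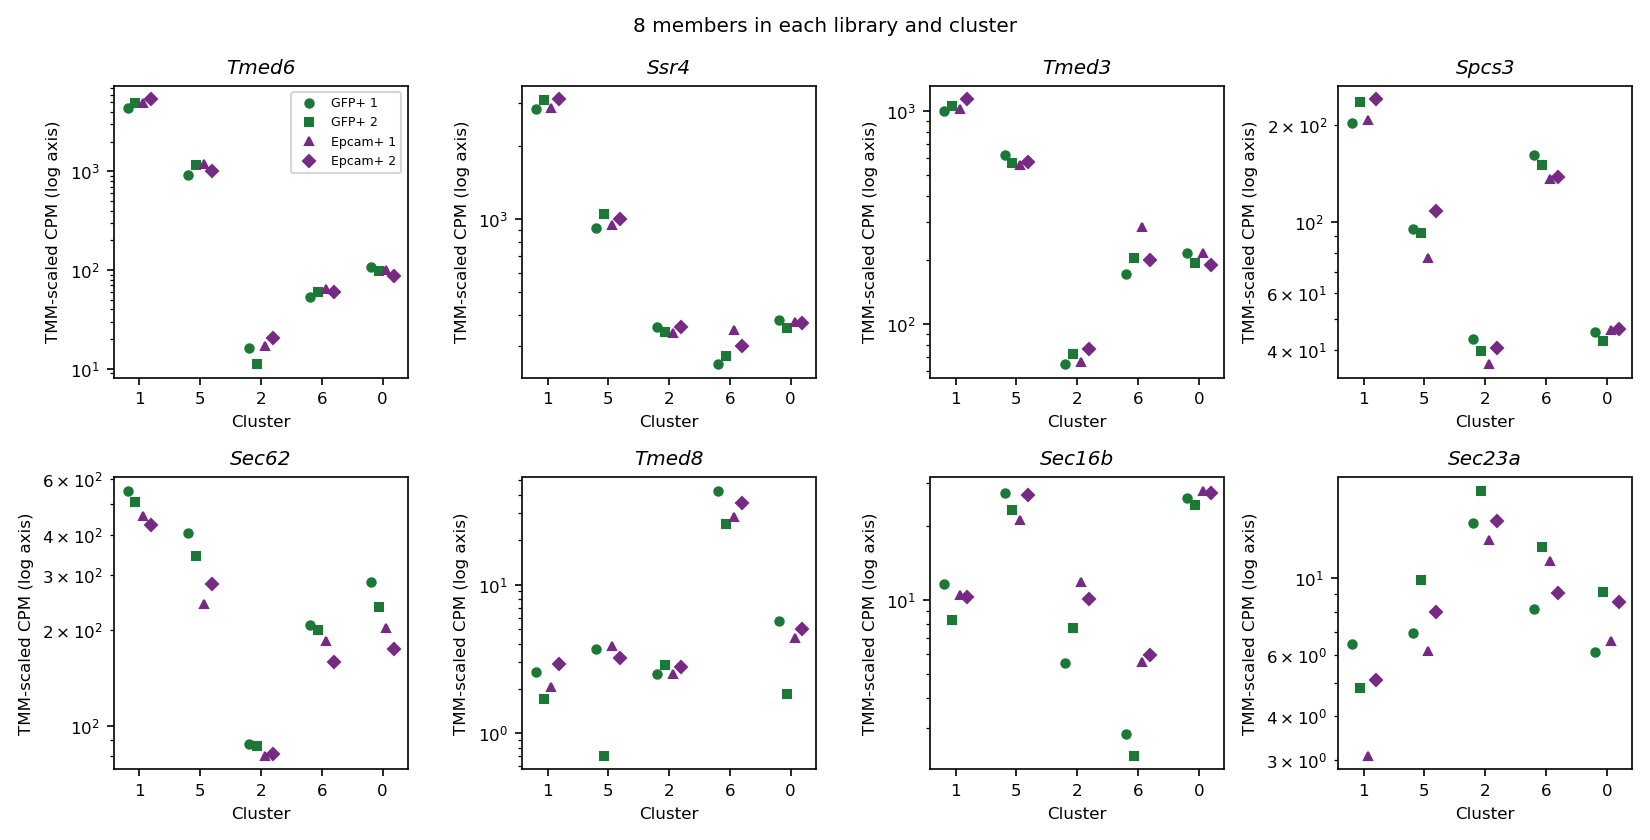
TMM-scaled CPM (log axis) of 8 members in each library (green GFP+, purple Epcam+) of clusters 1, 5, 2, 6 and 0. The libraries of a cluster sit close together for Tmed6 and Ssr4, and Tmed8 is highest in cluster 6.

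Later stages rose less. Of 13 COPII coat and organiser members 7 rose and 3 fell, with a median log2 fold change of 0.48, and of 8 COPI members 4 rose and 2 fell, with a median of 0.17. The GTPase Sar1b, which starts COPII assembly, averaged 187 ± 22.4 CPM in cluster 1, against 58.9 ± 3.98 CPM in cluster 0, and made up 63.0% ± 3.72 of the Sar1 pair in cluster 1, against 47.7% ± 3.86 in cluster 0. Its paralog Sar1a rose by 0.77. Sec23b rose by 1.08 and Sec23a fell by 0.70 ± 0.17 on the log2 scale, with overlapping libraries, and Sec23a had 3.94% ± 1.12 of the Sec23 pair in cluster 1, against 11.9% ± 2.60 in cluster 0. Sec24a and Sec24c, cargo-binding coat subunits, did not pass the test (log2 fold change -0.03 and 0.14), Sec24d rose by 0.48 and Sec24b fell by 0.54. Sec13 and Sec31a, the outer coat, rose by 1.04 and 0.60.

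Sec16b, an organiser of exit sites, had 8.33 to 11.6 CPM in cluster 1, against 24.5 to 28.0 CPM in cluster 0. All 4 libraries of cluster 1 lay below all of cluster 0 and the log2 fold change was -1.37 ± 0.13, while Sec16a rose by 0.48. Sec23ip did not pass (log2 fold change -0.04 ± 0.09). Of the COPI coat, Cope, the epsilon subunit, rose by 1.24, Arcn1 by 0.73, Copg1 by 0.52 and Copz1 by 0.17, Copb1 fell by 0.25 and Copg2 by 0.45, and Copa (0.16) and Copb2 (0.15) did not pass. Among the Sec22 genes Sec22b rose by 0.76, and Sec22a fell by 0.25 and Sec22c by 0.70. Sec22c was low throughout, with 1.64 to 2.54 CPM in cluster 1, against 3.06 to 3.65 CPM in cluster 0. Rab3d had 147 to 166 CPM in cluster 1, against 83.9 to 91.7 CPM in cluster 0, a log2 fold change of 0.83 ± 0.06.

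The p24 family held the largest single change. Tmed6 had 4400 and 4882 CPM in GFP+ libraries and 4922 and 5378 CPM in Epcam+ libraries of cluster 1, against 87.8 to 106 CPM in cluster 0. All libraries of cluster 1 lay far above those of cluster 0 (log2 fold change 5.64 ± 0.19, edgeR adjusted p = 2.2e-19). Per cell, cluster 1 held 134 ± 18.6 Tmed6 UMIs and cluster 0 held 3.64 ± 0.734 UMIs (SD, n = 4 libraries). Tmed6 was 62.9% ± 1.02 of p24 UMIs in cluster 1, against 6.89% ± 0.414 in cluster 0. Tmed3, a p24 member that pairs with others in the family, averaged 1054 ± 60.2 CPM in cluster 1, against 203 ± 14.1 CPM in cluster 0. Tmed2, Tmed4, Tmed9 and Tmed10 also rose, by 0.75, 0.25, 0.71 and 1.09. Tmed1 averaged 9.17 ± 0.321 CPM in cluster 1, against 22.9 ± 0.966 CPM in cluster 0, and Tmed8 fell by 0.91 ± 0.21 with overlapping libraries. Tmed5 (-0.10) and Tmed7 (0.09) did not pass.

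Clps UMIs were also counted in the other clusters, and Tmed6 was set against them. Per 1000 Clps UMIs, Tmed6 had 2.88 ± 0.213 UMIs in cluster 1, 3.05 ± 0.275 UMIs in cluster 5 and 2.70 ± 0.668 UMIs in cluster 7 (n = 3 libraries). The ratio was 4.60 ± 1.17 in cluster 6. In clusters 2 and 0 it was lower in both GFP+ libraries than in both Epcam+ libraries, with 7.44 and 9.23 in GFP+ libraries, against 30.8 and 28.4 in Epcam+ libraries of cluster 2, and 10.5 and 10.5 in GFP+ libraries, against 23.99 and 19.3 in Epcam+ libraries of cluster 0. The ratios in clusters 5 and 7 lie near that of cluster 1. The part of chief cell RNA in the Tmed6 level of cluster 7, 319 CPM, was not tested. The part of cluster 1 RNA in the Tmed6 level of cluster 5 was not tested either.

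**Figure D3:**
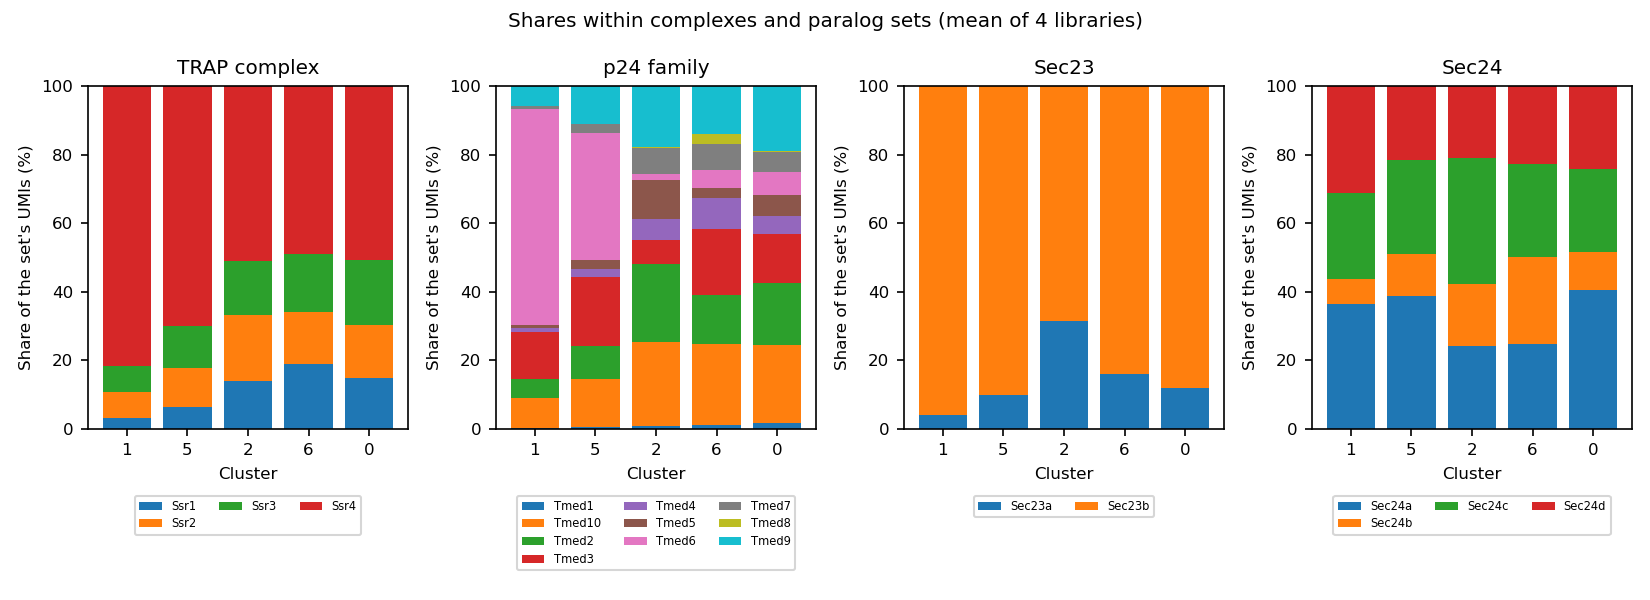
Share (%) of each set's UMIs held by its genes in clusters 1, 5, 2, 6 and 0, for the TRAP complex, the p24 family, Sec23 and Sec24, as means over 4 libraries. Ssr4 fills 81.8% of the TRAP bar in cluster 1, against 50.8% in cluster 0, and Tmed6 62.9% of the p24 bar in cluster 1, against 6.89% in cluster 0.

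As one sum, with Clps, Pla2g1b and Pgc left out of the denominator, members made up 2.39% ± 0.0953 of UMIs in cluster 1, against 0.951% ± 0.0262 in cluster 0. The share was 1.45% ± 0.0683 for cluster 5, 0.595% ± 0.0382 for cluster 2 and 0.977% ± 0.0611 for cluster 6. On this denominator the libraries of clusters 6 and 0 overlapped. With all UMIs in the denominator the order changed, with 0.423% in cluster 1, 0.626% in cluster 5 and 0.948% in cluster 6 (0.893% to 1.02%), against 0.788% in cluster 0 (0.748% to 0.828%), and clusters 6 and 0 no longer overlapped. Per cell, cluster 1 held 541 ± 87.6 member UMIs and cluster 0 held 211 ± 31.5, and without Tmed6 and Ssr4 they held 325 ± 54.9 and 194 ± 28.8 UMIs.

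**Figure D4:**
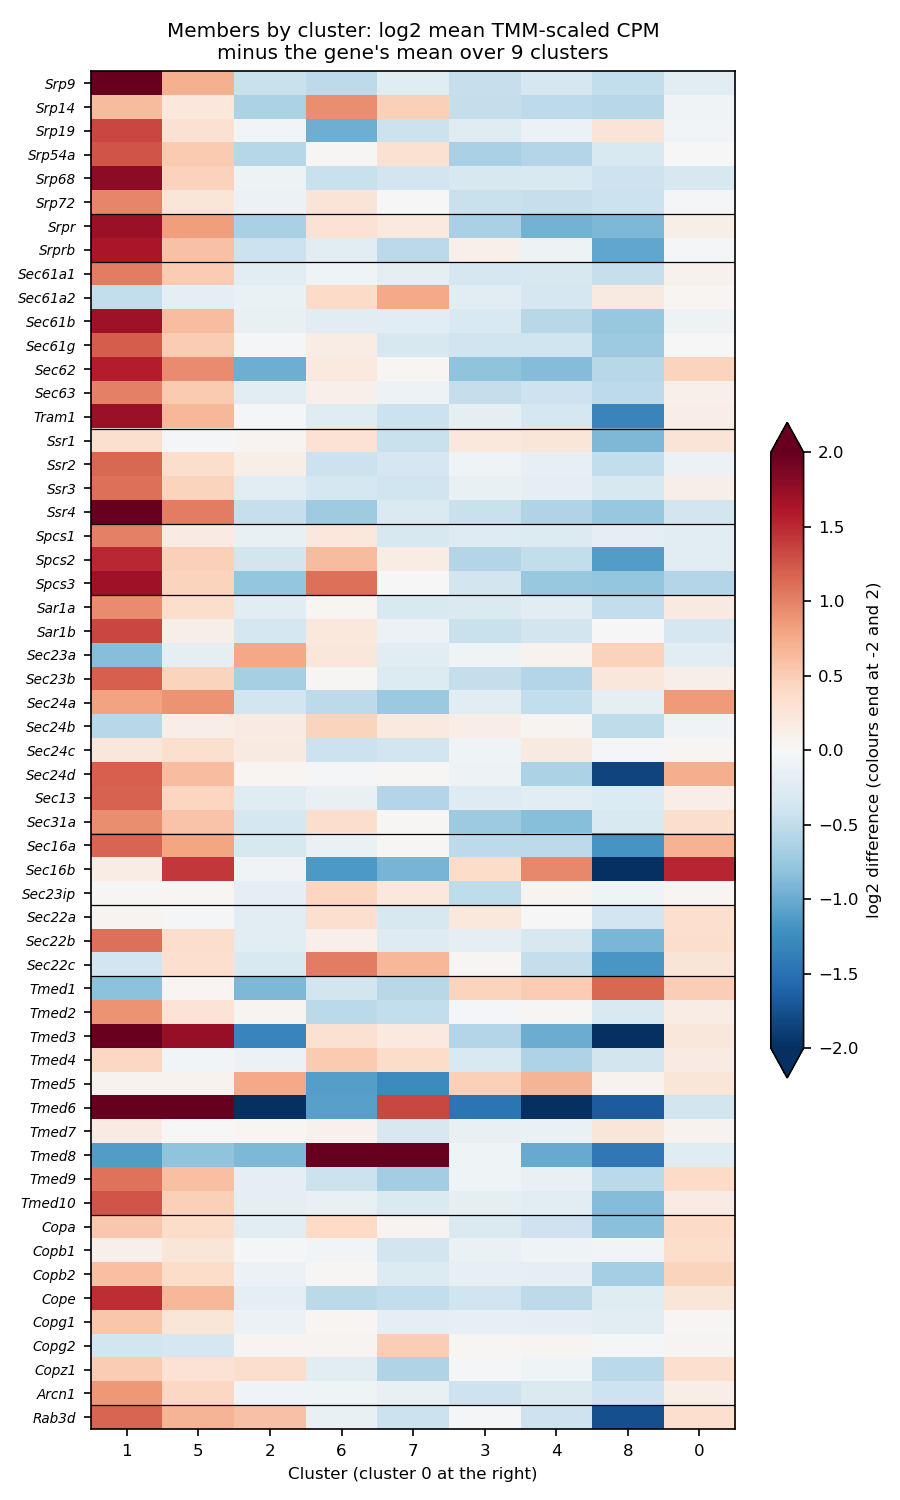
Log2 mean TMM-scaled CPM of each member minus its mean over 9 clusters, with members in rows by role and colours ending at 2 log2 units. In this plot 40 of 57 members had their highest level in cluster 1 on this scale.

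That count was 1 with library totals, 32 with totals without the 3 products and 18 by UMIs per cell. With TMM, 26 of 57 members had their lowest level in cluster 8, the parietal cells, including Sec24d with 4.34 CPM and Rab3d with 20.5 CPM. The count for cluster 8 was 5 with library totals (51 for cluster 1) and 19 with totals without the 3 products (also 19 for cluster 2). By UMIs per cell it was 7 (33 for cluster 7). UMIs per cell outside the 3 products averaged lowest among these clusters in cluster 7 (18927) and highest in cluster 2 (51501). These means cover unlike sets of libraries, because clusters 3, 4 and 8 had Epcam+ libraries only. In Epcam+ 1 and 2, cluster 2 held 39412 and 35285 such UMIs per cell, against 45546 and 43688 in cluster 4. The counts of members by UMIs per cell have the same limit.

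The isthmus clusters 3 and 4, measured in the Epcam+ libraries only, had Sec62 at 94.1 and 89.8 CPM, Tmed3 at 116 and 87.3 CPM and Tmed1 at 22.0 and 23.2 CPM. In the same Epcam+ libraries Sec62 had 80.3 and 81.2 CPM in cluster 2, the pit cells, against 203 and 175 CPM in cluster 0. Tmed3 had 66.4 and 76.2 CPM in cluster 2, against 215 and 189 CPM in cluster 0. For both genes the isthmus clusters lay nearer to cluster 2. Tmed1 had 11.6 and 12.7 CPM in cluster 2, against 21.9 and 23.75 CPM in cluster 0, and there the isthmus clusters lay at the level of cluster 0.

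Cluster 5 stood between clusters 1 and 0. In it 31 members rose and 1 fell, where 18.1% of all genes passed (10.3% higher and 7.82% lower), with a median log2 fold change of 0.26. With library totals and no TMM factors 3 rose and 51 fell, where 352 of all genes rose and 9714 fell. Without Epcam+ 2 only 17 passed, where 746 of all genes rose and 466 fell. The entry machinery again led, with 20 of its 22 members higher, and the Ssr4 share of TRAP was 70.0% ± 1.73. Tmed6 averaged 1065 ± 125 CPM in cluster 5, against 97.8 ± 7.70 CPM in cluster 0. Ssr1 fell by 0.28 ± 0.08. Markers of other types moved with these values. In cluster 5 over cluster 0, 4 of 5 pit markers and all 5 isthmus markers rose, and the pit markers summed to 3351 to 12674 CPM in cluster 5, against 101 to 418 CPM in cluster 0. Their part in the members' levels was not tested.

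In cluster 2 the members were mostly lower on the TMM scale. Of 57, 5 rose and 34 fell, where 55.8% of all genes passed (25.4% higher and 30.4% lower). With totals without the 3 products 1 rose and 51 fell, where 1583 of all genes rose and 6386 fell. Per cell the order was the other way, with 303 ± 84.5 member UMIs in cluster 2, against 211 ± 31.5 in cluster 0. These values are means with SD (n = 4 libraries), and the libraries overlapped. All UMIs per cell also ran higher in cluster 2, at 52075 ± 16693, against 26971 ± 4948 in cluster 0. By UMIs per cell, 15 of 57 members were highest in cluster 2, but clusters 3, 4 and 8 had Epcam+ libraries only in that count. Sec62 had 80.3 to 87.7 CPM in cluster 2, against 175 to 284 CPM in cluster 0, and the log2 fold change was -1.39 ± 0.09. Tmed3 averaged 69.9 ± 5.34 CPM in cluster 2, against 203 ± 14.1 CPM in cluster 0, and Tmed6 16.2 ± 3.83 CPM against 97.8 ± 7.70 CPM. Both exit site organisers fell, Sec16a by 1.00 and Sec16b by 1.44, as did Sec24a by 1.08.

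Sec23a went the other way from Sec23b. It had 12.9 to 17.9 CPM in cluster 2, against 6.13 to 9.13 CPM in cluster 0, with no overlap, and a log2 fold change of 0.92 ± 0.12, while Sec23b fell by 0.76. Sec23a held 31.5% ± 5.44 of the pair in cluster 2, against 11.9% ± 2.60 in cluster 0. The other members that rose were Tmed5 (0.57), Srp68 (0.27), Rab3d (0.24) and Ssr2 (0.22).

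In cluster 6 12 members rose and 27 fell, where 65.2% of all genes passed (36.4% higher and 28.8% lower). With library totals 28 rose and 11 fell, where 6592 of all genes rose and 2529 fell. Tmed8 had 25.4 to 42.6 CPM in cluster 6, against 1.83 to 5.72 CPM in cluster 0, and rose by 2.89 ± 0.14. It was also high in the other endocrine cluster, cluster 7, at 36.6 CPM. The signal peptidase subunits rose together, Spcs3 by 1.67 ± 0.09, Spcs2 by 0.85 and Spcs1 by 0.41, although the catalytic subunits Sec11c and Sec11a, which are no members, fell by 1.17 and 0.65. Srp14 rose by 0.99 ± 0.08 and Srp19 fell by 0.93, and Srp14 outnumbered Srp9, with 57.3% ± 3.37 of their UMIs in cluster 6, against 35.4% ± 1.99 in cluster 0. Sec16b averaged 4.17 ± 1.86 CPM in cluster 6, against 26.5 ± 1.52 CPM in cluster 0, and Sec24a and Tmed5 fell by 1.27 and 1.24.

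The GFP+ libraries were compared with the Epcam+ libraries within each cluster to ask whether label-retaining cells differed in this machinery. No member passed in clusters 1, 5, 2, 6 or 0 with edgeR or with DESeq2, where 0.0887%, 0.309%, 0.364%, 0.221% and 0.159% of all genes passed with edgeR. At an unadjusted p under 0.05 edgeR gave 6, 3, 6, 7 and 6 members in these clusters, or 10.5%, 5.45%, 10.5%, 12.3% and 10.5% of those tested, where 7.97%, 8.41%, 16.0%, 7.01% and 11.4% of all genes did, and DESeq2 gave 3, 2, 3, 1 and 2. In cluster 1 the members' log2 fold changes ran between -0.30 and 0.46 with a median of -0.0022, and the 95% interval lay within a 2-fold change for 53 of 57 members.

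Sec62 had an unadjusted p under 0.05 in clusters 1, 5, 6 and 0. In cluster 0 it had 393 and 332 CPM in GFP+ libraries, against 278 and 240 CPM in Epcam+ libraries (scaled within the cluster), and both GFP+ libraries lay above both Epcam+ libraries (log2 fold change 0.49 ± 0.12, edgeR adjusted p = 0.25). In cluster 1 it had 120 and 110 CPM in GFP+ libraries, against 98.5 and 91.7 CPM in Epcam+ libraries (0.27 ± 0.09, edgeR adjusted p = 0.49). In cluster 2 Tmed1 had 8.14 and 5.57 CPM in GFP+ libraries, against 14.9 and 16.2 CPM in Epcam+ libraries (-1.11 ± 0.23, edgeR adjusted p = 0.10). The GFP+ effect in cluster 1 minus that in clusters 0, 5, 2 or 6 passed for 0 members (edgeR), and 4, 1, 1 and 0 members had an unadjusted p under 0.05 (7.02%, 1.75%, 1.75% and 0%), where 5.49%, 5.35%, 8.12% and 5.13% of all genes did. The share of all genes that passed was 0.113%, 0.0173%, 0.286% and 0.379%. DESeq2 was not run on this difference.

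**Figure D5:**
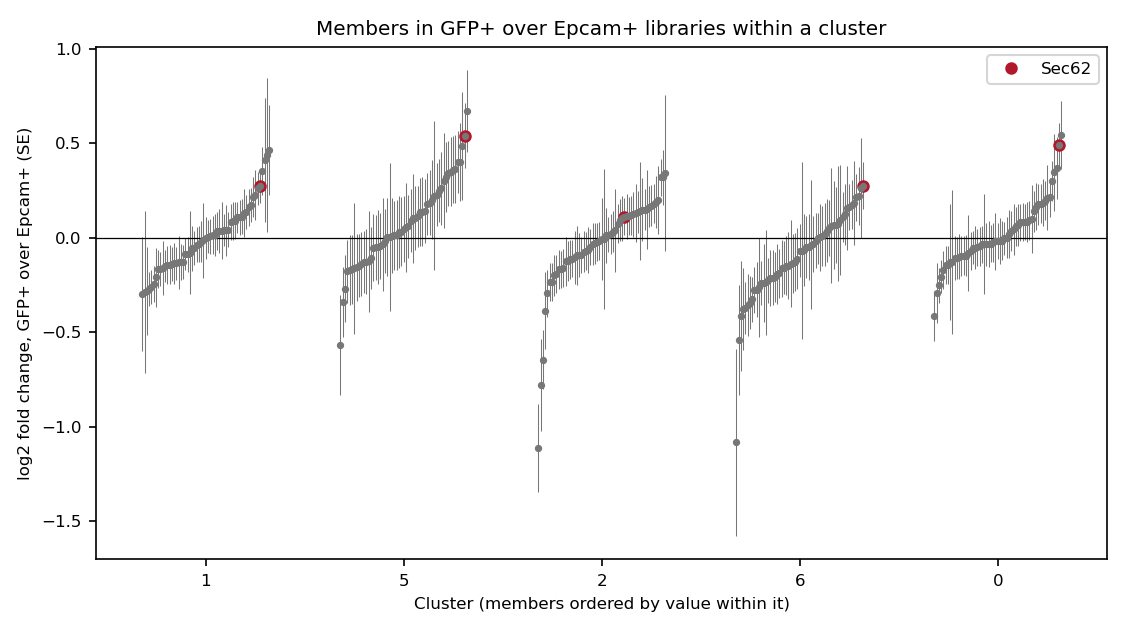
Log2 fold change with SE of members in GFP+ over Epcam+ libraries within clusters 1, 5, 2, 6 and 0, ordered by value, with Sec62 in red. Most points lie within 0.5 of 0, and the lowest are Tmed1 in cluster 2 (-1.11) and Sec16b in cluster 6 (-1.08).

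Other genes of the pathway were counted by lists on the TMM scale, where 27.2% of all genes rose and 30.8% fell in cluster 1. Lists of granule exocytosis genes, Arf GTPases of COPI and catalytic signal peptidase subunits were also made, and their counts are not given here. In cluster 1 against cluster 0, 11 of 12 oligosaccharyltransferase genes rose, Krtcap2 by 1.69 and Magt1 by 1.49. Of 14 export regulators and cargo receptors 11 rose and 2 fell, of 20 tethering and fusion genes 15 rose and 2 fell, and of 16 tail anchor and membrane insertion genes 11 rose and 1 fell. Of 12 transcription factors and sensors of the secretory pathway 8 rose and 4 fell. With library totals, where the median of all genes was -2.68, every tested gene of the other 4 lists counted here fell. Of the transcription factors and sensors, 1 rose and 11 fell on that scale. Bhlha15, a transcription factor of zymogenic cells, averaged 113 CPM in cluster 1, against 4.5 CPM in cluster 0, and Ern2, a stress sensor of mucous cells, 6.7 CPM in cluster 1, against 126 CPM in cluster 0.

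Promoters were read from RefSeq on GRCm38.p6 for 49 of the 58 members, from 250 bases before to 50 after the start site. CCACG, on either strand, was in 33 of 49 member promoters (67.3%), against 35.5% of 27025 genes. TGACGTGG, on either strand, which holds CCACG on its other strand, was in 5 of 49 (10.2%), against 0.714%, and the endoplasmic reticulum stress response element (ERSE) in 0 of 49, against 0.137%. CATATG and TGACGTCA were also searched. CATATG was in 2 of 49 (4.08%), against 4.48%, and TGACGTCA in 1 of 49 (2.04%), against 2.03%. The 27025 genes were neither limited to those expressed here nor matched for base composition, and a match is a description of letters only. The stretches below show 3 members whose TGACGTGG, in capitals, lies wholly before the RefSeq start site used here, with Copb1 on the other strand. The gene bounds of GENCODE begin further upstream, and all 3 matches fall inside them.
Sec24d, chr3:123267444-123267495, + strand: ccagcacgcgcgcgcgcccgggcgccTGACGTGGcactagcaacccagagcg
Sec16b, chr1:157506726-157506785, + strand: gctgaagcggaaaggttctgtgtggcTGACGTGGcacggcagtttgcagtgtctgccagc
Copb1, chr7:114254681-114254734, - strand: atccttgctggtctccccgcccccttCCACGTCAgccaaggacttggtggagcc

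These 3 did not share a direction in cluster 1, where Sec24d rose by 0.48, Sec16b fell by 1.37 and Copb1 fell by 0.25. Tmed6 and Ssr4, shown next for their large rise in cluster 1, differ in that Tmed6 has 1 CCACG (capitals) and Ssr4 none in the last 150 bases before the start site.
Tmed6, chr8:107065645-107065794, - strand: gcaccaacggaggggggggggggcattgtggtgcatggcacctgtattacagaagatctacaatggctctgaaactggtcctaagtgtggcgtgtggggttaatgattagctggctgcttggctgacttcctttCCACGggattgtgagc
Ssr4, chrX:73786873-73787022, + strand: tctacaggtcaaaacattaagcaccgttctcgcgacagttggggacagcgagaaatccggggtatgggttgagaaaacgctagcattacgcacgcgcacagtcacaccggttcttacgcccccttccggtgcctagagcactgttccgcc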

How the data were processed

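By the submitters' processing notes, Cell Ranger 3.0.2 and mm10 were used for UMI counting, and the authors dropped cells with a high mitochondrial share, with too few or too many genes, or with Ptprc or Pecam1 counts. The deposited values were raw counts of 17712 genes in 4449 cells, with a cluster and a library for each cell from the authors, and no column was left unused. Library totals ran between 35571141 and 79455225 UMIs.

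The counts were summed per library and cluster where a sum held at least 20 cells. GFP+ and Epcam+ sums were compared within clusters 1, 5, 2, 6 and 0, and clusters 1, 5, 2 and 6 with cluster 0 (library as a block), by edgeR 4.0.16 (R 4.3.3) with TMM factors, filterByExpr, the two-sided quasi-likelihood test and Benjamini-Hochberg adjustment over all genes at 0.05. Fits were tested on simulated data. DESeq2 1.42.0 was an alternative test, and doublets were called with Scrublet in scanpy 1.11.5 (74 cells). CPM across clusters and within a cluster are scaled separately. 4 barcodes occurred in more than 1 library. Clusters 3, 4, 7 and 8 gave levels only, and cluster 9 had too few cells.

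The members and gene lists were chosen with earlier results of these data known. Every member is named, with values per library for those that changed most past the threshold (at least 10 CPM in 1 of the clusters), for paralogs, Rab3d and Tmed6. Other settings were library totals, DESeq2 size factors, totals or TMM without Clps, Pla2g1b and Pgc, no filter, DESeq2, the block, no doublets and leaving out each library.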

Additional observations from a re-analysis of the deposited data

How the results depend on the processing

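GFP+ against Epcam+ gave 0 members in each cluster, and the exceptions among the settings run were few. With the replicate number as a block, 5 members passed in cluster 1 (3 higher, 2 lower) and 3 in cluster 0. Of all genes, the block gave 290 higher and 124 lower in cluster 1, and 350 higher and 301 lower in cluster 0. Leaving out each library gave 0 to 2 in cluster 0 and 0 to 1 in clusters 5 and 6, and no filter on low counts gave 2 in cluster 2. Libraries of the same number correlated in their deviations by 0.18 in cluster 1 and 0.23 in cluster 0, and by -0.037, 0.18 and 0.15 for clusters 5, 2 and 6. No source says that the numbers mark a pairing, so the block results stand only here. Over all genes, cluster 1 gave 9 calls in the main setting, 414 with the block and 236 with no filter. In cluster 2, no filter gave 346 of all genes higher and 293 lower.

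In cluster 5 over cluster 0, 32 members passed, against 54 with library totals and 17 to 27 without 1 library (17 without Epcam+ 2). Of all genes, 1349 rose and 1028 fell in the main setting, and 352 rose and 9714 fell with library totals. With library totals, 37 called members changed sign in cluster 1 and 27 in cluster 5, with 0 and 9 for clusters 2 and 6. With totals without Clps, Pla2g1b and Pgc, 2, 0, 3 and 0 did in the same order of clusters. After the shift of all genes was taken off, a step chosen after seeing the data, 3 still turned, each near 0: Sec22b in cluster 5 (-0.014) and Sec31a in cluster 6 (0.0033) with library totals, and Copz1 in cluster 2 (-0.018) with totals without the 3 products. The member share with all UMIs below was 0.423% in cluster 1, 0.626% in cluster 5 and 0.788% in cluster 0. Without doublets, Srp9 held 72.4% of its pair and Tmed3 22.4% of p24 UMIs in cluster 5. The cause of these changes was not tested. The difference of the GFP+ effect between clusters was also run without doublets, chosen after seeing the data, and again gave 0 members in each.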

Other observations

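Cluster 9, which the study names tuft cells, entered no comparison. It held 18 cells in Epcam+ 1, 13 cells in Epcam+ 2 and 1 cell in GFP+ 1. Members made up 0.607% of UMIs outside Clps, Pla2g1b and Pgc in Epcam+ 1, and 0.669% in Epcam+ 2. Tmed6 had 10 UMIs in Epcam+ 1 and 4 UMIs in Epcam+ 2.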
